A study of Mus musculus with 6 samples.

Results

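The vascular basement membrane is the thin sheet of extracellular matrix on which endothelial cells (ECs) sit, and 10 genes for its components were followed across 3 subsets of mouse thymic ECs. The genes were chosen by name, with earlier results of these data known. They were the collagen IV chains Col4a1 and Col4a2, the laminin chains Lama4, Lama5, Lamb1 and Lamc1, and the linker proteins Nid1 and Nid2. The heparan sulfate proteoglycan gene Hspg2 and Sparc completed the set. All 10 were found among the 24457 genes on chromosomes in the deposited tables, and all 10 were among the 11717 genes that passed the filter on low values. RNA was sequenced from ECs sorted as CD31+CD45-EpCAM- cells from the thymus of wildtype female C57BL/6 mice of 4 to 6 weeks, with 2 libraries for each subset and 6 in all. Ly6C and P-selectin (Selp) divided the cells into Ly6C+Selp- (type I), Ly6C+Selp+ (type II) and Ly6C-Selp+ (type III) ECs, called by their types from here on, and the submitters state a sort purity of at least 90%. No group was treated or mutated, and every group went through the same digestion with collagenase and dispase, which cut matrix proteins. Only RNA was measured, so the values do not describe the protein in the vessel wall. Whether the replicates came from separate animals or pools is not given in the sources used here, so the p-values measure only the spread between these libraries.

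In a vessel wall, laminin heterotrimers of an alpha, a beta and a gamma chain polymerize at the cell surface, a network of collagen IV forms alongside, and nidogens and perlecan bridge both networks. ECs secrete most of these proteins themselves and share the sheet with pericytes, whose processes are embedded in it. Laminins with the alpha 4 chain line nearly all vessels, whereas the alpha 5 chain is known for its patchy presence in venules, where leukocytes cross the wall preferentially at sites poor in it.

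Collagen IV, Sparc, Nid2, Lama4 and Lamb1 transcripts were lower in type III than in type I ECs, whereas the mean FPKM of Nid1 was 66.2 to 69.4 and that of Lama5 42.9 to 44.2 across the 3 subsets. In the comparison of these outer subsets, 6 of 10 members passed an adjusted p of 0.05 in limma, all 6 of them lower in type III ECs, against 2.05% of all tested genes that were lower by the same test (240 genes, and 381 after quantile normalization or 417 by TPM, where the same 6 members passed). Their mean FPKM (fragments per kilobase of transcript, scaled to the mapped fragments of the library, a level per length) was 2.44 to 5.18 times higher in type I ECs. The libraries of 7 of 10 members did not overlap and were lower in type III ECs, against 17.1% of all tested genes. The median difference of the 10 members was -1.33 on the log2(FPKM + 1) scale, beside 0.08 over all tested genes. The count depended on single libraries. It was 2 without type I replicate 2 (Nid2 and Sparc), 2 without type III replicate 2 (Nid2 and Col4a2), 1 without type III replicate 1 (Nid2), 4 without type I replicate 1 and 5 without either type II library. With no filter on low values 2 members passed (Lamb1 and Nid2), and with no trend in the fit 3 (Lamb1, Nid2 and Sparc). With only the type I and type III libraries in the fit, 5 passed, all of the 6 but Col4a1.

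**Figure D1:**
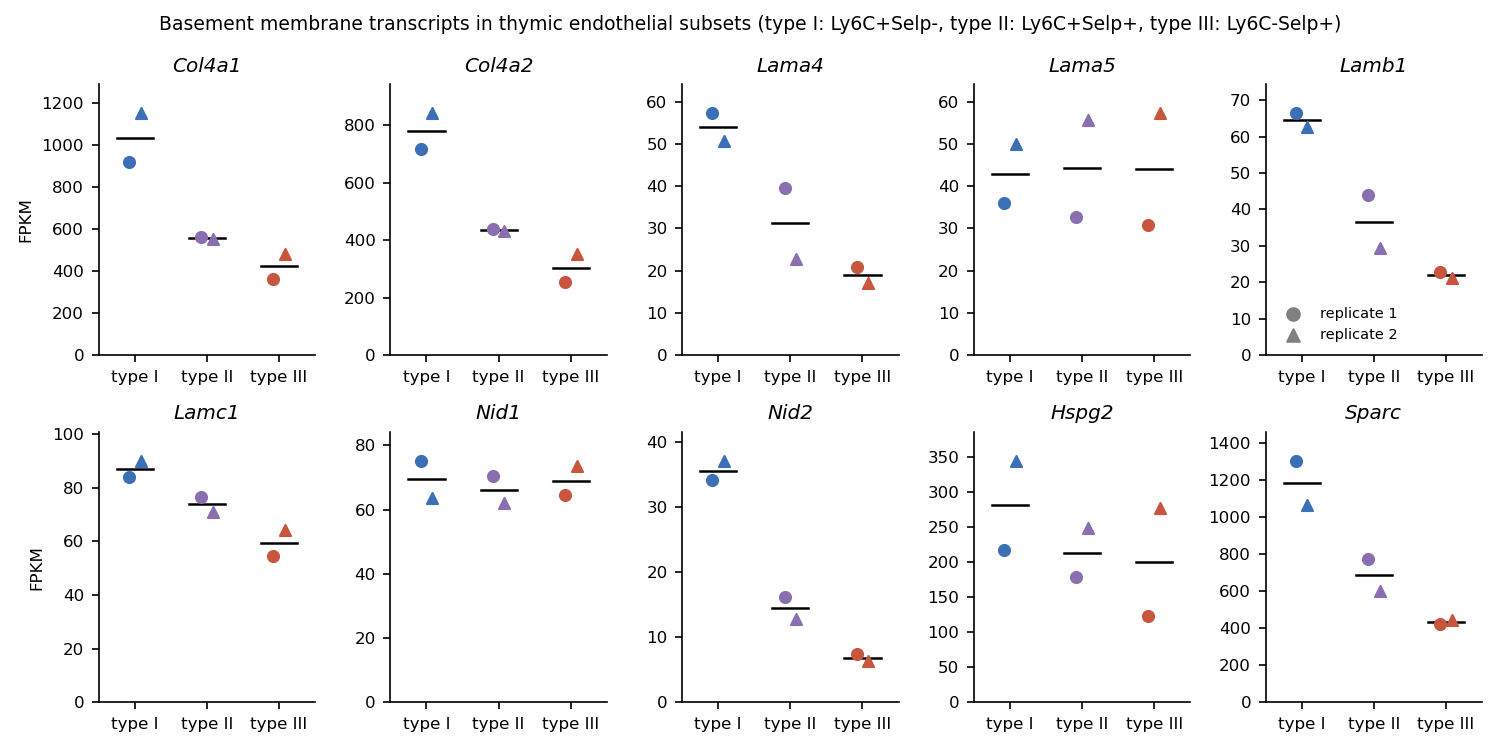
FPKM (y axes, each starting at 0) of the 10 members in the 3 subsets (x axes), with a circle for replicate 1, a triangle for replicate 2 and a bar for the mean of both. Col4a1, Col4a2, Lama4, Lamb1, Nid2 and Sparc step down from type I to type III ECs, whereas the points of Lama5, Nid1 and Hspg2 overlap between these subsets.

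The start regions of members with and without a difference are shown first, because they show what lies before genes that belong to one structure and did not move alike. Each is the stretch of 250 bases before the gene's start from the RefSeq promoter table, 5′ to 3′ on the gene's strand, and was placed on mm9 by its single exact match. Capitals mark a CCAAT box (CCAAT or its reverse complement ATTGG) and a GC box (GGGCGG or CCGCCC). Only windows with 0 annotated exon bases are shown. The windows are those of Sparc, which fell (chr11:55233583-55233832, minus strand), and of Nid1 (chr13:13529619-13529868, plus strand) and Lama5 (chr2:179960565-179960814, minus strand), which did not pass the test.
Sparc: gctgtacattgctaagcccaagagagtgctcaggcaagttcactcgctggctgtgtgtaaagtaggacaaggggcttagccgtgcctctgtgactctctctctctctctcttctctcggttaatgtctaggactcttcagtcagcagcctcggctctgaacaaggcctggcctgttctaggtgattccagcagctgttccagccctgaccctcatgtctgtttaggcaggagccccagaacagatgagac
Nid1: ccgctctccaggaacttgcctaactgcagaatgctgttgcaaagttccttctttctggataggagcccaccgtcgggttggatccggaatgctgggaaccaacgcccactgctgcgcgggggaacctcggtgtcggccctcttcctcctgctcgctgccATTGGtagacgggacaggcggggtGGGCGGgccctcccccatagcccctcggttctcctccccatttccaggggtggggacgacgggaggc
Lama5: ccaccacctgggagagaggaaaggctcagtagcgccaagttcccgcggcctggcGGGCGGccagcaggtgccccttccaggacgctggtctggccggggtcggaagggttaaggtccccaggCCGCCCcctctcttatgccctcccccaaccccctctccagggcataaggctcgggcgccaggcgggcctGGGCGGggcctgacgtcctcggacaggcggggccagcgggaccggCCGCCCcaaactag
The whole table window of 300 bases adds 50 bases after the start. Over it, GC content was 55.33% for Sparc, 64.67% for Nid1 and 72.67% for Lama5. Of the windows not shown, those of Col4a1, Col4a2 and Lamb1, which fell, had 74%, 73.67% and 63.67%. That of Hspg2, which did not pass, had 70.33%. The table held 7 of the 10 members. The windows of 300 bases of Col4a1 and Col4a2 overlap on chromosome 8, so the 7 windows are not 7 separate sequences. On either strand, GGGCGG was present in the windows of 6 of the 7 (all but Sparc), against 35.66% of 32851 promoters of the same length. CCAAT was present in 4 of the 7 (Col4a1, Col4a2, Lamb1 and Nid1), against 37.41%, and TATAAA in 0 of the 7, against 13.62%. Such matches describe the letters in the window and not bound factors.

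Col4a1 and Col4a2 encode the alpha chains that wind together into the collagen IV of most basement membranes. They lie head to head on chromosome 8 of mm9, Col4a1 at chr8:11198423-11312826 on the minus strand and Col4a2 at chr8:11312829-11449287 on the plus strand. These deposited positions do not overlap. In the GENCODE annotation, a separate source, exons of both genes share 22 bases. FPKM of Col4a1 was 919.7 and 1151 in type I ECs, 565 and 553 in type II ECs, and 364 and 483 in type III ECs. FPKM of Col4a2 was 716 and 840.2, then 437 and 433, then 254 and 352. In both genes the 3 subsets did not overlap, with both type I libraries highest and both type III libraries lowest. Between type I and type III ECs, Col4a1 fell by 1.29 on the log2 scale, with a standard error (SE) of 0.25 (limma adjusted p = 0.020), and Col4a2 fell by 1.37 (SE 0.25, adjusted p = 0.015). Col4a1 passed without type I replicate 1 but not without any of the other 5 libraries (adjusted p = 0.062 to 0.21), and Col4a2 did not pass without type I replicate 2 (adjusted p = 0.061) or type III replicate 1 (0.16).

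The ratio of Col4a1 to Col4a2 FPKM stayed between 1.28 and 1.43 in the 6 libraries. The SD of its log2 over the 6 libraries was 0.07, the smallest of the 45 pairs that the 10 members form. Both genes together took 0.546% and 0.899% of the summed FPKM in type I ECs, 0.384% and 0.430% in type II ECs, and 0.205% and 0.307% in type III ECs. The shares did not overlap between type I and type III ECs. Among 4186 other genes with a mean FPKM of at least 10, those whose log2(FPKM + 1) followed the mean of Col4a1 and Col4a2 most closely over the 6 libraries were Smtn (Pearson's r = 0.992), Myo10 (0.991), Spata13 (0.991), Abl1 (0.990) and Ccdc88c (0.989), and 70 genes reached 0.95. These values describe 6 libraries of the same 3 subsets. Smtn, for smoothelin, a protein of the actin cytoskeleton, had an FPKM of 41.0 and 47.7 in type I ECs and of 20.4 and 25.7 in type III ECs.

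**Figure D2:**
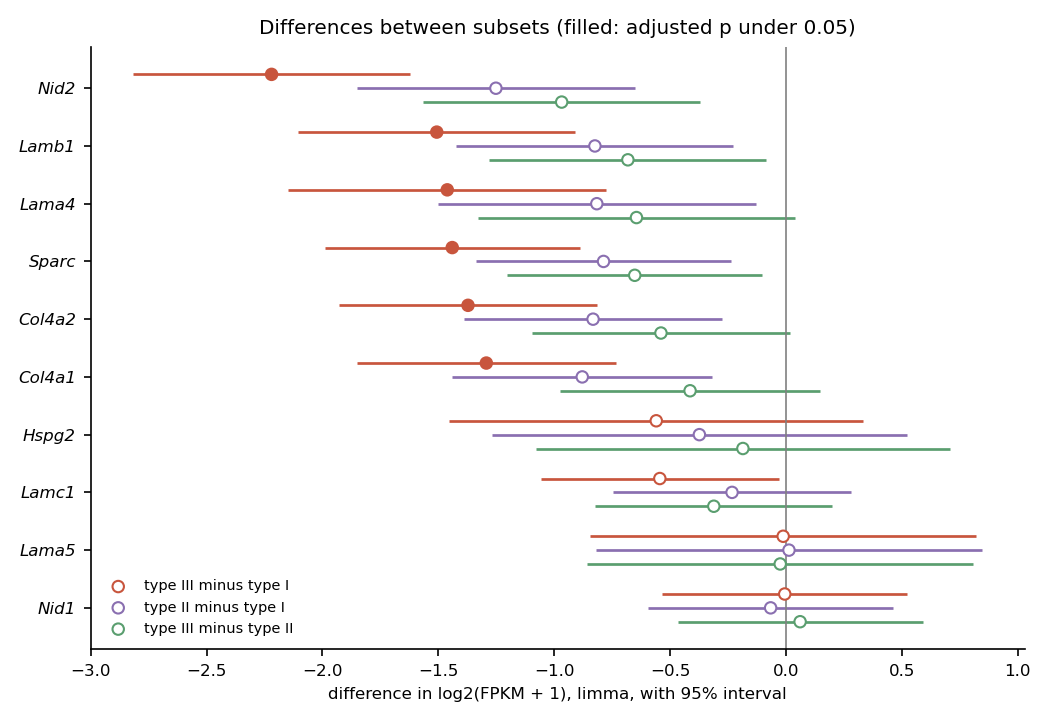
Differences between subsets in log2(FPKM + 1) for each member (x axis), with limma's 95% interval as a line and a filled point where the adjusted p was under 0.05. For type III against type I ECs 6 points are filled, from -2.22 for Nid2 to -1.29 for Col4a1, and the open points of Nid1 and Lama5 sit at -0.01.

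Among the laminin chains, alpha 4, beta 1 and gamma 1 combine into the trimer that ECs make most widely, and alpha 5 pairs with the same beta and gamma chains. Lama4 (chr10:38685321-38829994, plus strand) had an FPKM of 57.2 and 50.7 in type I ECs, 39.7 and 22.9 in type II ECs, and 21.0 and 17.1 in type III ECs. Lamb1 (chr12:31950159-32014504, plus strand) stood at 66.4 and 62.7, at 43.9 and 29.5, and at 22.9 and 21.3. For both genes each subset lay below the one before it with no overlap. From type I to type III ECs, Lama4 fell by 1.46 on the log2 scale (SE 0.30, limma adjusted p = 0.029) and Lamb1 by 1.51 (SE 0.26, adjusted p = 0.013). Both genes no longer passed when any 1 of the 4 libraries compared was left out, with an adjusted p of 0.10 to 0.16 for Lama4 and 0.055 to 0.094 for Lamb1.

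Lamc1 (chr1:155066052-155179916, minus strand), encodes the gamma chain common to both trimers. Its FPKM was 83.9 and 90.0 in type I ECs, 76.6 and 71.1 in type II ECs, and 54.7 and 64.2 in type III ECs. The 3 subsets did not overlap, but the difference of -0.54 between the outer subsets missed the threshold (95% interval -1.06 to -0.03, limma adjusted p = 0.32). The ratio of Lamb1 to Lamc1 went from 0.744 ± 0.067 (SD, n = 2) in type I ECs to 0.375 ± 0.061 (SD, n = 2) in type III ECs, with no overlap. Lamb2, a further beta chain gene that is no member, was 1.26 to 3.68 times Lamb1 in the 6 libraries. Its FPKM was 83.4 and 81.7 in type I ECs and 45.0 and 78.3 in type III ECs. The difference was -0.47 (limma adjusted p = 0.58).

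Lama5 (chr2:179911078-179960564, minus strand) gave no such order. Its FPKM was 35.9 and 49.97 in type I ECs, 32.8 and 55.7 in type II ECs, and 30.8 and 57.2 in type III ECs. The replicates of each subset lay further apart than the means, and the difference between the outer subsets was -0.01 with a 95% interval of -0.85 to 0.82 (limma adjusted p = 0.99), which leaves room for a change of either sign. In each subset replicate 2 was the higher library.

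The balance of alpha chains was compared within each library. The ratio of Lama5 to Lama4 FPKM was 0.63 and 0.98 in type I ECs, 0.83 and 2.43 in type II ECs, and 1.47 and 3.35 in type III ECs. Both type III values were above both type I values, and the log2 ratio was higher by 1.23 between libraries of replicate 1 and by 1.77 between those of replicate 2. An exact two-sided permutation test gave p = 0.33, the smallest that 2 libraries against 2 allow. Lama4 and Lamb1 by contrast kept a ratio of 0.78 to 0.92 in all 6 libraries, and the SD of its log2, 0.10, was the second smallest of the 45 pairs.

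**Figure D3:**
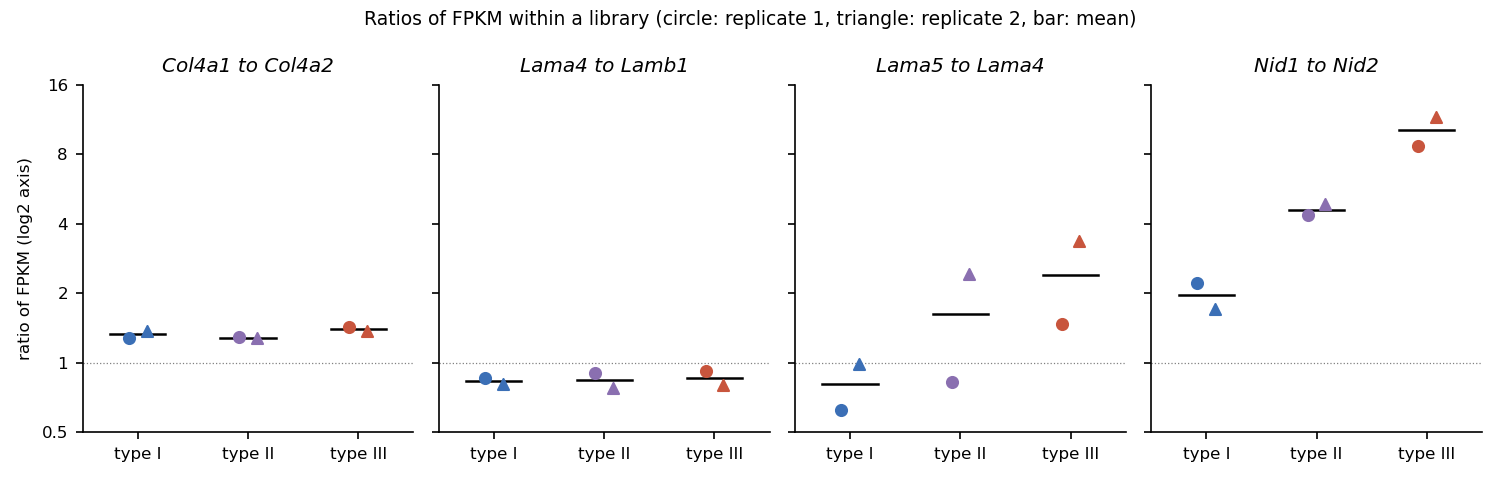
Ratio of the FPKM of 2 members within each library (y axis, log2 scale) in the 3 subsets (x axes), with a circle for replicate 1, a triangle for replicate 2 and a bar for the mean. Col4a1 to Col4a2 and Lama4 to Lamb1 are level across the subsets, whereas Nid1 to Nid2 goes from a mean of 1.96 to one of 10.2 and Lama5 to Lama4 from 0.81 to 2.41.

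The nidogens link laminin to collagen IV and can stand in for each other in part. Nid2 (chr14:20570479-20631009, plus strand) had an FPKM of 34.1 and 37.1 in type I ECs, 16.1 and 12.8 in type II ECs, and 7.40 and 6.35 in type III ECs. Its subsets did not overlap, and the gap between neighbouring subsets exceeded the gap between replicates throughout. Nid2 fell by 2.22 on the log2 scale between the outer subsets (SE 0.26, limma adjusted p = 0.0020), and it was the only member to pass in this comparison in each of the 6 fits that left out 1 library. At the step from type I to type II ECs its difference was -1.25 (adjusted p = 0.12), and with the replicate number as a block limma gave an adjusted p of 0.031. The values rested on 73 to 520 estimated fragments.

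Nid2 shares 386 exon bases, 7.90% of its own, with the antisense gene 2700060E02Rik. The sources do not say that strand was used in the counting, so reads in the shared stretch cannot be assigned to either gene. FPKM of 2700060E02Rik was 28.3 and 17.2 in type I ECs, 17.1 and 16.9 in type II ECs, and 37.6 and 23.1 in type III ECs, and the outer subsets overlapped.

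Nid1 (chr13:13529869-13604542, plus strand) gave no order, with 75.2 and 63.6 in type I ECs, 70.4 and 61.9 in type II ECs, and 64.4 and 73.7 in type III ECs. All 3 subsets overlapped, and the 95% interval of the difference between the outer subsets was -0.53 to 0.52 (limma adjusted p = 0.996). The ratio of Nid1 to Nid2 was 2.21 and 1.71 in type I ECs, 4.36 and 4.84 in type II ECs, and 8.71 and 11.6 in type III ECs. No value of one subset fell within the range of another, and the exact permutation test between the outer subsets was again at its floor of 0.33.

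Hspg2 (chr4:137024718-137126545, plus strand) encodes perlecan, the large proteoglycan whose heparan sulfate chains bind growth factors. FPKM was 218 and 345 in type I ECs, 179 and 249 in type II ECs, and 124 and 278 in type III ECs. The subsets overlapped, and the difference of -0.56 between the outer subsets came with a 95% interval of -1.45 to 0.33 (limma adjusted p = 0.64). Like Lama5, Hspg2 was higher in replicate 2 in each of the 3 subsets, by a mean of 0.76 on the log2 scale against 0.69 for Lama5. These are the members with the longest transcripts, of 14187 and 11388 bases. Over all tested genes with a known length, the median of replicate 2 minus replicate 1 was -0.26 for transcripts up to 2000 bases and -0.09 for those above 8000 bases, and the part of length in the spread of these members was not tested.

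Sparc (chr11:55207661-55233582, minus strand) encodes osteonectin, a secreted protein that binds collagen IV and attends its deposition, and was the member with the highest mean FPKM in each subset. FPKM was 1305 and 1065 in type I ECs, 777 and 600.1 in type II ECs, and 424 and 444 in type III ECs. The subsets stepped down without overlap, from a mean of 1185 ± 169.7 (SD, n = 2) to 688 ± 125 (SD, n = 2) and 434 ± 14.5 (SD, n = 2). Sparc fell by 1.44 on the log2 scale between the outer subsets (SE 0.24, limma adjusted p = 0.011). It did not pass without type III replicate 1 (adjusted p = 0.10) or type III replicate 2 (0.083). Its level did not separate from that of Col4a1 in type I and type III ECs, where their libraries overlapped, and lay above it in type II ECs.

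In order of mean FPKM in type I ECs, Sparc and Col4a1 were followed by Col4a2, Hspg2, Lamc1, Nid1, Lamb1, Lama4, Lama5 and Nid2. The libraries of neighbours in this order overlapped for Sparc and Col4a1, for Nid1 and Lamb1, and for Lama5 and Nid2. In type III ECs, Nid1, Lamc1 and Lama5 stood above Lamb1 and Lama4, and Nid2 came last with all its libraries below those of the other members. Overlap among neighbours was found there for Sparc and Col4a1, for Col4a2 and Hspg2, and for Lamc1 and Lama5. The 10 members together made up 1.17% and 1.70% of the summed FPKM in type I ECs, 0.857% and 0.912% in type II ECs, and 0.454% and 0.660% in type III ECs.

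Type II ECs lay between the outer subsets for the 6 members that fell. Their mean was 54.7% (Sparc) to 68.0% (Col4a1) of the way from type I to type III ECs on the log2 scale. Over all 10 members it was between the others for 8, and outside for Nid1 and Lama5. Genes picked for a wide difference between the outer subsets leave much room for a mean in between. The share over all genes that fell was not computed. Neither single step passed the test. Between type I and type II ECs, 0 of 10 members passed in limma, against 0.393% of all tested genes. An unadjusted limma p under 0.05 was found for 6 of 10 members and for 877 of the 11717 tested genes. With the replicate number as a block 1 member passed, Nid2. Between type II and type III ECs, 0 of 10 passed, against 0.222% of all tested genes. Here 3 of 10 members and 1170 of the 11717 tested genes had an unadjusted limma p under 0.05.

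Sparc passed at the second step under another scaling, with a difference of -1.03 after quantile normalization (limma adjusted p = 0.031) and of -0.88 after scaling to TPM (adjusted p = 0.042), against -0.65 as deposited (adjusted p = 0.42). The median over all tested genes was 0.14 at this step on the deposited scale, and the median of the members was -0.48. At the first step these medians were -0.06 and -0.80. The libraries of 7 members did not overlap and were lower in type II ECs at the first step, against 20.6% of all tested genes, and those of 7 members were lower in type III ECs at the second, against 13.3%. Both steps share the type II libraries.

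Genes for other components of the basement membrane were counted next, from a list of 19 of which 14 were tested. Between the outer subsets 3 of the 14 fell, against 2.05% of all tested genes, and 0 rose. Lama3, which encodes a further laminin alpha chain, had an FPKM of 11.1 and 14.1 in type I ECs and of 2.63 and 1.61 in type III ECs, and fell by 2.14 on the log2 scale (limma adjusted p = 0.0080). Fn1, for fibronectin, went from 24.6 and 32.0 to 11.4 and 9.58 and fell by 1.34 (adjusted p = 0.022). Tinagl1, a secreted glycoprotein gene, went from 276 and 233 to 91.7 and 135 and fell by 1.18 (adjusted p = 0.036). Sparcl1, a relative of Sparc, was at 663 and 506 against 517 and 498, with a difference of -0.19 (adjusted p = 0.83). The median difference of the 14 genes was -0.48.

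Among 20 tested genes for the synthesis and crosslinking of collagens, collagen IV included, 1 was lower and 1 higher. The shares of all tested genes were 2.05% and 2.09%, and the median of the list was 0.12. Pxdn encodes peroxidasin, which forms the sulfilimine crosslinks of collagen IV, and fell from 63.0 and 64.0 to 30.7 and 31.2, a difference of -1.01 (limma adjusted p = 0.039). Lox encodes the lysyl oxidase of collagen and elastin, and rose from 1.27 and 0.977 to 12.8 and 11.8, a difference of 2.65 (adjusted p = 0.0077). Of the most abundant genes of the list, the collagen chaperone Serpinh1 had a difference of -0.81 (adjusted p = 0.085) and P4hb, a subunit of prolyl hydroxylase, one of 0.73 (adjusted p = 0.19).

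Of 14 tested receptor genes, 4 passed as higher in type III ECs, against 2.09% of all tested genes. As lower, 0 passed, against 2.05%, and the median of the list was -0.20. The largest differences among the receptors that did not pass were -1.30 (Itga7), -1.03 (Itga1) and -0.99 (Itga6). Their limma adjusted p was 0.12, 0.11 and 0.13. The integrin subunit genes Itga2, Itga3 and Itgb4, whose proteins bind collagens and laminins, rose by 1.58, 1.41 and 1.51 on the log2 scale (limma adjusted p = 0.040, 0.030 and 0.039). Itgb4 had an FPKM of 15.7 and 19.0 in type I ECs and of 38.7 and 67.6 in type III ECs. Stab1, a scavenger receptor that takes up SPARC protein, stood at 22.0 and 23.6 in type I ECs, 30.3 and 46.8 in type II ECs, and 84.3 and 133 in type III ECs, and rose by 2.17 (adjusted p = 0.0050). The subsets of Stab1 did not overlap and ran in the order opposite to that of Sparc.

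Of 10 genes for matrix proteases and their inhibitors, 1 rose and 0 fell, beside 2.09% and 2.05% of all tested genes. Timp2, an inhibitor of metalloproteinases, went from 32.3 and 19.7 in type I ECs through 61.9 and 56.9 to 104 and 98.9 in type III ECs, a difference of 1.97 (limma adjusted p = 0.0047). Timp3 had a difference of -0.74 (adjusted p = 0.26), Adamts4 one of -0.47 (adjusted p = 0.51) and Adamts1 one of -0.06 (adjusted p = 0.96). At either single step 0 genes of these related lists passed.

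**Figure D4:**
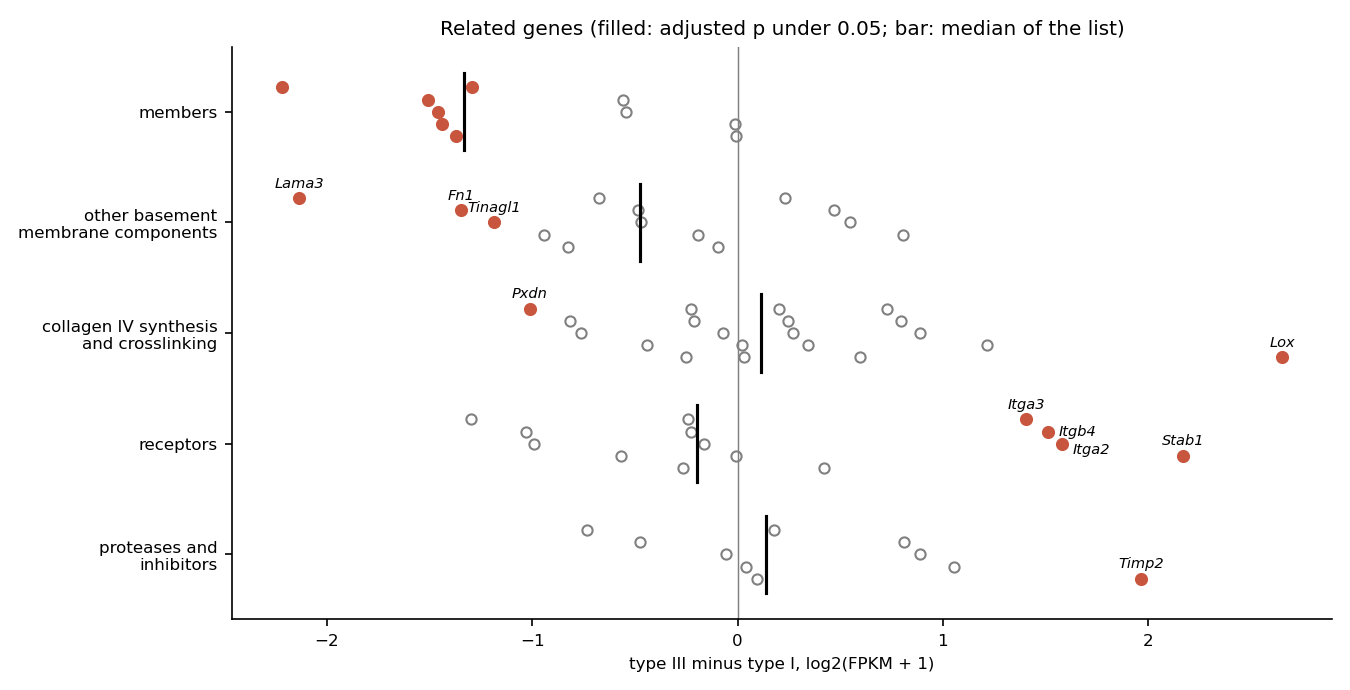
Difference in log2(FPKM + 1) between type III and type I ECs (x axis) for each tested gene of the members and of the related lists (rows), with filled points past an adjusted p of 0.05 in limma, a bar at each list's median, and vertical offsets only to part the points. The median of the members sits at -1.33 and those of the related lists between -0.48 and 0.14.

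Markers of other cells that make or border basement membrane moved between the same subsets. Of 10 pericyte or smooth muscle markers, 4 fell between type I and type III ECs with differences of -1.85 for Pdgfrb, -1.73 for Notch3, -2.38 for Abcc9 and -3.69 for Kcnj8 (limma adjusted p = 0.013 to 0.021), against 2.05% of all tested genes. Tagln, a smooth muscle gene, was the 1 marker that passed as higher, by 1.60 (limma adjusted p = 0.011), against 2.09% of all tested genes. The contractile genes Acta2 and Myh11 also had differences above 0, of 1.16 (adjusted p = 0.18) and 0.73 (adjusted p = 0.54), with Acta2 at 13.7 and 7.53 in type I ECs and 16.9 and 33.8 in type III ECs, and Des had one of -1.56 (adjusted p = 0.14). Rgs5, the most abundant of them, was at 346 and 114 in type I ECs, 284 and 137 in type II ECs, and 48.6 and 45.4 in type III ECs, a difference of -2.06 (adjusted p = 0.057). The summed FPKM of the 10 markers was 271 to 630 in type I ECs, 476 to 625 in type II ECs and 184 to 264 in type III ECs, and Kcnj8 was at 0 in type III replicate 1. In sorted bulk RNA, fewer cells of a type and less RNA per cell cannot be told apart, and the part of pericyte RNA in the members' differences was not tested.

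The markers and the members were also set side by side at each step. From type I to type II ECs the median of the 10 markers was -0.03 and that of the members was -0.80. Of the markers, 1 was higher (Tagln) and 0 lower, beside 0.393% of all tested genes in either direction. Tagln, Acta2 and Myh11 had differences of 2.11, 1.60 and 1.29 at this step, and the other markers lay from -0.35 (Abcc9) to 0.24 (Cspg4). From type II to type III ECs the median of the markers was -1.59 and that of the members -0.48. In both lists 0 genes passed there, beside 0.222% of all tested genes. Between the replicates of type I ECs the marker sum was 630 in replicate 1 and 271 in replicate 2, of which Rgs5 alone made 346 and 114. Of the 6 members that fell, Sparc, Lama4 and Lamb1 were also higher in replicate 1, and Col4a1, Col4a2 and Nid2 were higher in replicate 2.

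**Figure D5:**
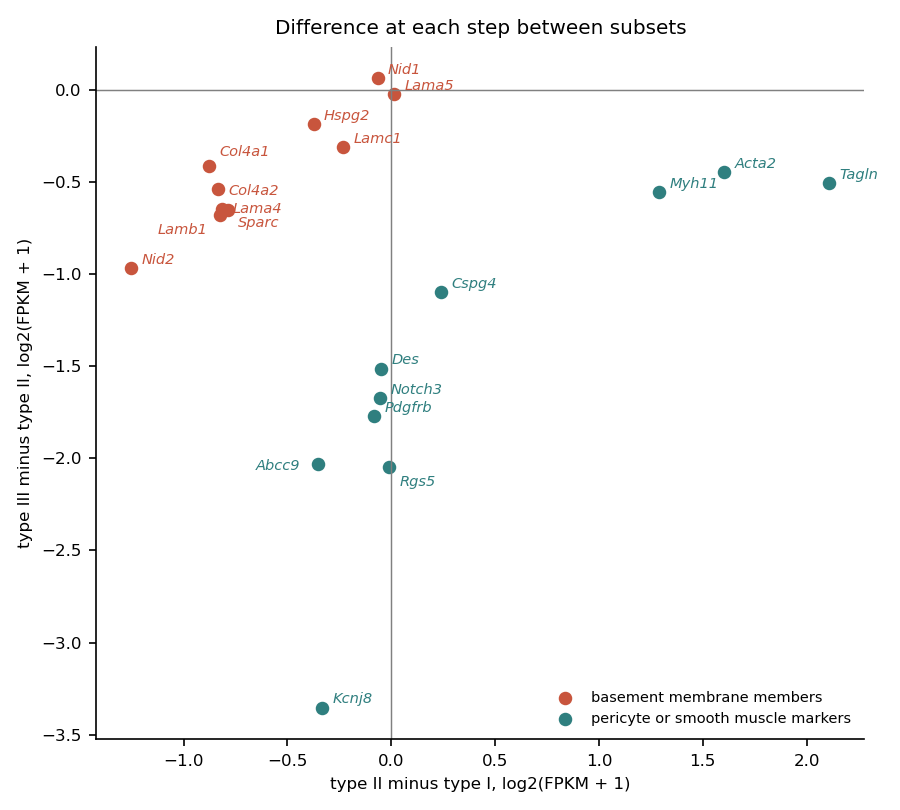
Difference in log2(FPKM + 1) from type I to type II ECs (x axis) and from type II to type III ECs (y axis) for the 10 members and the 10 pericyte or smooth muscle markers; both axes use the same type II libraries. The 6 members that fell lie below 0 on both axes, and most markers lie near 0 on the x axis or right of it and far below 0 on the y axis.

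Markers of the remaining cell types gave 1 call between the outer subsets, where 2.05% of all tested genes were lower and 2.09% higher. At these shares a short list can hold 0 calls, so a 0 does not show that its markers were equal. Of 7 fibroblast markers 0 passed (among them Col1a1, Col1a2, Col3a1, Dcn, Lum and Dpt), with summed FPKM of 166 to 274, 273 to 452 and 179 to 180 from type I through type II to type III ECs. Of the lymphatic (Flt4 above an FPKM of 10), thymic epithelial (Krt8) and thymocyte markers (Cd3e, Cd3g, Cd4, Cd8b1, Lck and Rag1), 0 passed. Lyve1 was at 0 in both type I libraries and at 12.4 and 1.07 in type III ECs (adjusted p = 0.14), Prox1 at 0.324 and 0.519 against 3.05 and 3.22 (adjusted p = 0.058), and Flt4 at 20.0 and 16.7 against 9.45 and 7.15 (adjusted p = 0.080). Their summed FPKM in the same order of subsets was 18.7 to 23.9, 9.85 to 12.4 and 13.3 to 30.1 for 4 lymphatic markers, 17.3 to 46.2, 17.2 to 20.9 and 13.0 to 45.8 for 6 thymic epithelial markers, and 23.5 to 89.2, 39.5 to 61.5 and 71.5 to 145 for 8 thymocyte markers. Of the myeloid markers (Ptprc, Cd68, Csf1r, Lyz2 and Cd14), Cd14 rose by 2.12 (limma adjusted p = 0.015), with sums over 6 markers of 33.3 to 228 in type I ECs, 44.8 to 88.7 in type II ECs and 81.6 to 400 in type III ECs. The part of these cells in the members' values was not tested.

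The summed FPKM of the 8 endothelial markers was 1718 to 2457 in the 6 libraries. Pecam1 and Cdh5 did not pass the test between the outer subsets (limma adjusted p = 0.36 and 0.43), whereas Kdr fell by 1.49 (adjusted p = 0.0079). Cldn5 fell by 3.70 (limma adjusted p = 0.00025), from 410 and 364 in type I ECs to 35.4 and 23.4 in type III ECs. The sort genes followed their labels, with Selp at 7.87 and 5.20 in type I ECs and 526 and 657 in type III ECs, and Ly6c1 at 1010 and 692 against 99.6 and 59.7. Summed FPKM per library was 221458 to 300932. The fragments behind it, read back from the deposited intervals as an estimate of counting error alone, were 1452476 to 2423171, with 73 to 28503 behind each member's value.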

How the data were processed

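RNA of sorted thymic ECs was sequenced in 2 libraries for each of 3 subsets, with groups and replicate numbers taken from the sample labels. After trimming and mapping to mm9, the authors ran Cufflinks on every library separately. The deposited values are its FPKM per gene, with the bounds of 95% intervals. The submitters' processing notes name CASAVA 1.8, TopHat2 2.0.10 and Cufflinks 2.1.1, and the gene annotation is not given in the sources used here. The study's test, Cuffdiff, needs reads, so limma 3.58.1 in R 4.3.3 was used here. Rows for spike-in and reporter sequences (95 of 24552) were left out. Genes that reached an FPKM of 1 in 2 or more libraries were fitted as log2(FPKM + 1), a scale that understates the change of low genes, in 1 fit of all 6 libraries with a mean per subset and a trend on mean expression. Benjamini-Hochberg adjustment ran over the 11717 tested genes, with a threshold of 0.05. With 2 libraries against 2, an exact permutation test cannot go below p = 0.33.

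Deviations of same-numbered libraries from their subset means correlated across genes at 0.18, 0.20 and 0.31 in the 3 pairs of subsets. The main fit and its p-values did not use the replicate number. It was read as pairing only in the replicate block, an alternative, and where libraries of the same number are compared. The labels do not say what the number stands for. Fragments were read back from the intervals as if these held counting error alone, and 3 fragments corresponded to a median FPKM of 0.43 to 0.76. Intervals of differences are limma's. Deposited starts count from 0, and 1 was added. Exons and lengths came from GENCODE mouse release M1 on the same assembly, and 93.3% of tested genes had a length. Promoters came from RefSeq, through a table that held 7 of 10 members.

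The members and gene lists were chosen with earlier results of these data known. Named were all members, each listed gene past the threshold or else the most abundant up to 4 per related list, and sort genes. Also named were markers of other cells whose mean FPKM reached 10 in a subset, and the 5 genes most like collagen IV. Kdr, Cldn5, Lyve1, Prox1, 2700060E02Rik, Lamb2, Itga1, Itga6 and Itga7 were added after their values were seen. The scripts were tested on simulated data. The alternatives were a pseudocount of 0.1, no filter, quantile normalization, TPM, no trend, only the compared libraries, the replicate block, and each library left out in turn.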

Additional observations from a re-analysis of the deposited data

Results flagged for a closer look

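The deposited tables also hold rows for reporter and spike-in sequences, which entered no comparison. In wildtype mice the reporter row RGC-mRFP was above 0 in all 6 libraries, with an FPKM of 18.2 and 1.83 in type I ECs, 23.7 and 5.31 in type II ECs, and 28.3 and 3.23 in type III ECs, on 4 to 34 estimated fragments. Replicate 1 was the higher library in each of the 3 subsets. The row RGC-GFP reached an FPKM of 2.37 in type III replicate 2, on 5 estimated fragments, and rested on 3 or fewer in the other libraries that list it, where it was not detectable above counting error. No value of the 10 members rests on them.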

How the results depend on the processing

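In each of the 13 alternatives and all 3 comparisons, Col4a1, Col4a2, Lama4, Lamb1, Lamc1, Nid2 and Sparc kept the direction of their difference. Between type I and type III ECs, 6 members passed, 2 with no filter on low values, 3 without the trend and 1 to 5 with a library left out; all tested genes gave 485 (245 higher, 240 lower), 694 (313 and 381) after quantile normalization, 709 (292 and 417) by TPM, 317 with no filter, 971 with the replicate block and 209 to 404 with a library left out. With only the compared libraries 5 members passed between type I and type III ECs, all of the 6 but Col4a1 (limma adjusted p = 0.068). All genes gave 405 calls there. With the replicate block 1 member, Nid2, passed between type I and type II ECs, and no other member's call changed. In that comparison all genes gave 46 calls (38 higher, 8 lower), against 12 with no filter, 103 (73 and 30) after quantile normalization, 97 by TPM, 15 without the trend, 29 with only the compared libraries, 183 (99 and 84) with the block and 12 to 33 with a library left out. Between type II and type III ECs, 1 member (Sparc) passed after quantile normalization or TPM, and all genes gave 26 (11 and 15), against 90 (22 and 68) after quantile normalization, 109 (18 and 91) by TPM, 10 without the trend, 7 with only the compared libraries, 229 (124 and 105) with the block, 2 to 14 with a library left out and 0 in limma with no filter, where 1354 of 16624 genes had an unadjusted p under 0.05. The causes were not tested. Signs near 0 turned. Nid1 went to 0.027 after quantile normalization and 0.0065 by TPM at the first step, and to -0.11 and -0.16 at the second. With a library left out, differences between the outer subsets ranged from -0.45 to 0.42 (Lama5), -0.12 to 0.11 (Nid1) and -1.14 to 0.019 (Hspg2), those of the first step from -0.36 to 0.39 (Lama5) and -0.19 to 0.053 (Nid1), and those of the second from -0.46 to 0.41 (Lama5), -0.035 to 0.16 (Nid1) and -0.77 to 0.39 (Hspg2). Quantile normalization moved the ratio of Col4a1 to Col4a2 to 1.59 in type I and 1.34 in type III ECs. Depth limits values that rest on 3 or fewer estimated fragments, and each member's value rested on 73 or more.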
